A study of Mus musculus with 6 samples.

Results

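Arc and 9 other immediate early genes (Fos, Fosb, Jun, Junb, Egr1, Egr2, Ier2, Atf3 and Nr4a1) were described in RNA-seq of cultured mouse chondrocytes, as 10 of the 41388 genes that were counted. All 10 passed the filter on low counts, which left 14533 genes. Arc was chosen by its measured fold change between these same samples, higher in Postn-/-, so its genotype difference is a description with no test, and the others were added as known immediate early genes. Baseline transcripts were compared between 3 Postn-/- and 3 wt samples. Postn encodes periostin, a secreted matrix protein, and the knockout mice were homozygous for the Postn tm1Jmol allele on a B6129SF2/J background. They were bred from heterozygous parents, and wt mice were littermates from those crosses, per the study's methods. All mice were male and 21 days old. The cartilage of the femoral head gave the primary chondrocytes, which were kept for 2 days in medium with serum and antibiotics and washed before RNA was extracted. No other treatment was given to either genotype.

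Immediate early genes are transcribed within minutes of a signal such as serum, a growth factor or mechanical load, by transcription factors that are already present in the cell, and their mRNAs are short-lived. Fos, Fosb, Jun and Junb encode parts of the AP-1 transcription factor, which in cartilage is known as an activator of matrix metalloproteinase and inflammatory genes. Arc is best known in neurons, where its protein, derived from the Gag of an ancient retrotransposon, helps to remove glutamate receptors from the synapse.

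Immediate early genes carry short regulatory elements close to their start sites, so promoter windows are shown for 4 of the genes. A window of 300 bases (250 before the start site and 50 from it on) was taken from RefSeq on build GRCm38.p6 for 7 of the 10 genes, matched by symbol, and of 5 windows for Egr2 the one nearest the start of its gene model was used. Windows for Arc, Egr1 and Ier2 were not used here. Fos and Egr2 are shown because their levels followed those of Arc most closely among the genes with a window, and Junb and Nr4a1 because their genotypes did not overlap. Capitals mark TGACG (the core of the cAMP response element, or CGTCA on the other strand), TATAAA and, in Nr4a1, the EGR motif GCGNGGGCG read on the other strand. The Fos window is at chr12:85473640-85473939 on the plus strand, the Egr2 window at chr10:67535249-67535548 on the plus strand, the Junb window at chr8:84978699-84978998 on the minus strand and the Nr4a1 window at chr15:101266596-101266895 on the plus strand.
Fos: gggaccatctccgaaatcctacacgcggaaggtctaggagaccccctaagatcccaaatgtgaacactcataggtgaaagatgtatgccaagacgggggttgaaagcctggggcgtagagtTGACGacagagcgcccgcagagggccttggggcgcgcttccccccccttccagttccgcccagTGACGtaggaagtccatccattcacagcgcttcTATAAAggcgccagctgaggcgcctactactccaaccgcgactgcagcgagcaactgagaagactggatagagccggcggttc
Egr2: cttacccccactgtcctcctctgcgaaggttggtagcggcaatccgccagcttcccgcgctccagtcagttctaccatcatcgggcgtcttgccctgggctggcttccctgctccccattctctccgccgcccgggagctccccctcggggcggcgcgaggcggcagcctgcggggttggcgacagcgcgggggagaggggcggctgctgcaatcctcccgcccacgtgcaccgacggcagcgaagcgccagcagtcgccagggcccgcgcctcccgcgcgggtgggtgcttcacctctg
Junb: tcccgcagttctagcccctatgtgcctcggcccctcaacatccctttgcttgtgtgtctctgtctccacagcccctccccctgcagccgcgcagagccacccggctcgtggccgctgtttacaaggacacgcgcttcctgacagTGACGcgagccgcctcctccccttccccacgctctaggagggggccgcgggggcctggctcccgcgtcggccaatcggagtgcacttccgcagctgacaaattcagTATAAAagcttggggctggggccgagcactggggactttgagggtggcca
Nr4a1: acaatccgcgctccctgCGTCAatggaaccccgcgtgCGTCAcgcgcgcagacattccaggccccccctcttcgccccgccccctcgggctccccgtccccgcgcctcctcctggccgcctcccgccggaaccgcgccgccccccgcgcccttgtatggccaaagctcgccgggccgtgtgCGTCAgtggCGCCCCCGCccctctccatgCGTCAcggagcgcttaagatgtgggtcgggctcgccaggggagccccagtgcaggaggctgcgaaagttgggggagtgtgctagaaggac

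With both strands searched, TGACG was in 5 of the 7 windows (Fos, Fosb, Junb, Atf3 and Nr4a1), and 20.8% of the 32817 RefSeq promoter windows of the same length held it. Fos had the motif at -129 and -66 from the start site (the site itself counted as 0) and Nr4a1 at -233, -213, -69 and -40. TATAAA was in 2 windows (Fos at -33 and Junb at 0) and in 13.6% of all windows. The EGR motif GCGNGGGCG was in 2 windows (Fosb and Nr4a1) and in 5.56% of all windows. The full cAMP response element TGACGTCA, which contains TGACG, was in none of the 7 windows and in 1.79% of all, and the AP-1 motif TGANTCA was in none of the 7 and in 7.81% of all. The ETS motif CCGGAAG (8.86% of all windows) and the serum response element known as the CArG box (1.63% of all windows) were in none of the 7 either. Elements more than 250 bases before the start site, or those of Arc, Egr1 and Ier2, were not searched. An absent motif in a window thus does not mean that the gene lacks it. The windows of Egr2 and Jun held none of these motifs. A match is a description of the letters and was not tied to binding in these data.

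The libraries held between 20587640 and 26572260 counts, so 3 counts were worth 0.113 to 0.146 CPM (counts scaled to the total of the library). All CPM levels below were also scaled by trimmed mean of M-values (TMM) factors for composition. Postn, the targeted gene on chromosome 3, had 4.66, 4.27 and 5.67 CPM in the knockout samples, against 10.1, 10.3 and 6.90 CPM in wt, so reads of the gene remained in the knockout. Counts per gene do not show on which exons they fell. Chondrocyte markers such as Sox9, Acan and Col2a1 (11 of 11 tested) summed to between 35140 and 46873 CPM in Postn-/- and between 29832 and 42938 CPM in wt. Of these, Col2a1, encoding the main cartilage collagen, had its genotypes apart, with 15767, 13696 and 18081 CPM in Postn-/- and 8271, 11867 and 9567 CPM in wt (log2 fold change 0.68, SE 0.21, unadjusted p = 0.0125 and adjusted p = 0.717, edgeR). Cnmd was also apart but lower, with 4693, 3542 and 4702 CPM in Postn-/- and 5071, 4968 and 5781 CPM in wt (log2 fold change -0.29). The log2 fold change was above 0 in 7 of the 11 markers. Of all 14533 tested genes, 1022 were apart and higher in Postn-/- and 955 apart and lower. Neuron markers, listed because Arc is a neuronal gene, summed to between 29.6 and 34.7 CPM in Postn-/- and between 31.6 and 35.5 CPM in wt, and their levels ranged from those of Map2 (11.9 to 16.4 CPM) and Tubb3 (8.76 to 13.03 CPM) to those of Stmn2 (0.0479 to 0.244 CPM). Of the 5 neuron markers tested, Syt1 had the widest difference (log2 fold change 0.58), Snap25 had 0.25, Tubb3 -0.24, Map2 -0.21 and Rbfox3 0.07, and none had an unadjusted p under 0.05 in edgeR's test. In bulk samples, fewer cells that express a gene and less RNA per cell cannot be told apart. The samples came from 3 mice of each genotype, and p-values measure the spread between these samples.

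Arc was higher on average in Postn-/- chondrocytes, but the samples of each genotype lay far apart from one another. Arc (ENSMUSG00000022602, chromosome 15 of GRCm38, 74669083 to 74672570, minus strand) drew 50, 147 and 376 reads from Postn-/- 1, 2 and 3, and 106, 19 and 22 from wt 1, 2 and 3. After normalization it measured 2.01, 5.98 and 17.9 CPM across Postn-/- 1 to 3 and 4.08, 0.860 and 1.05 CPM across wt 1 to 3. The genotypes overlapped: Postn-/- 1 lay below wt 1, and the exact Poisson 95% intervals of these counts, 1.49 to 2.65 CPM and 3.34 to 4.93 CPM, did not touch. These intervals cover counting error only.

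The mean level of Arc was 8.64 ± 8.28 CPM in Postn-/- and 2.00 ± 1.80 CPM in wt (SD, n = 3 each), a ratio of means of 4.33. The fitted log2 fold change, Postn-/- over wt, was 2.08 with a standard error (SE) of 0.85. One library carried much of it. Postn-/- 3 gave 69.2% of the summed Postn-/- CPM, and the Postn-/- mean was 3.99 CPM without it. The log2 fold change ranged from 0.97 without Postn-/- 3 to 3.16 without wt 1, the wt library with the highest level. The highest sample was 20.8 times the lowest.

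**Figure D1:**
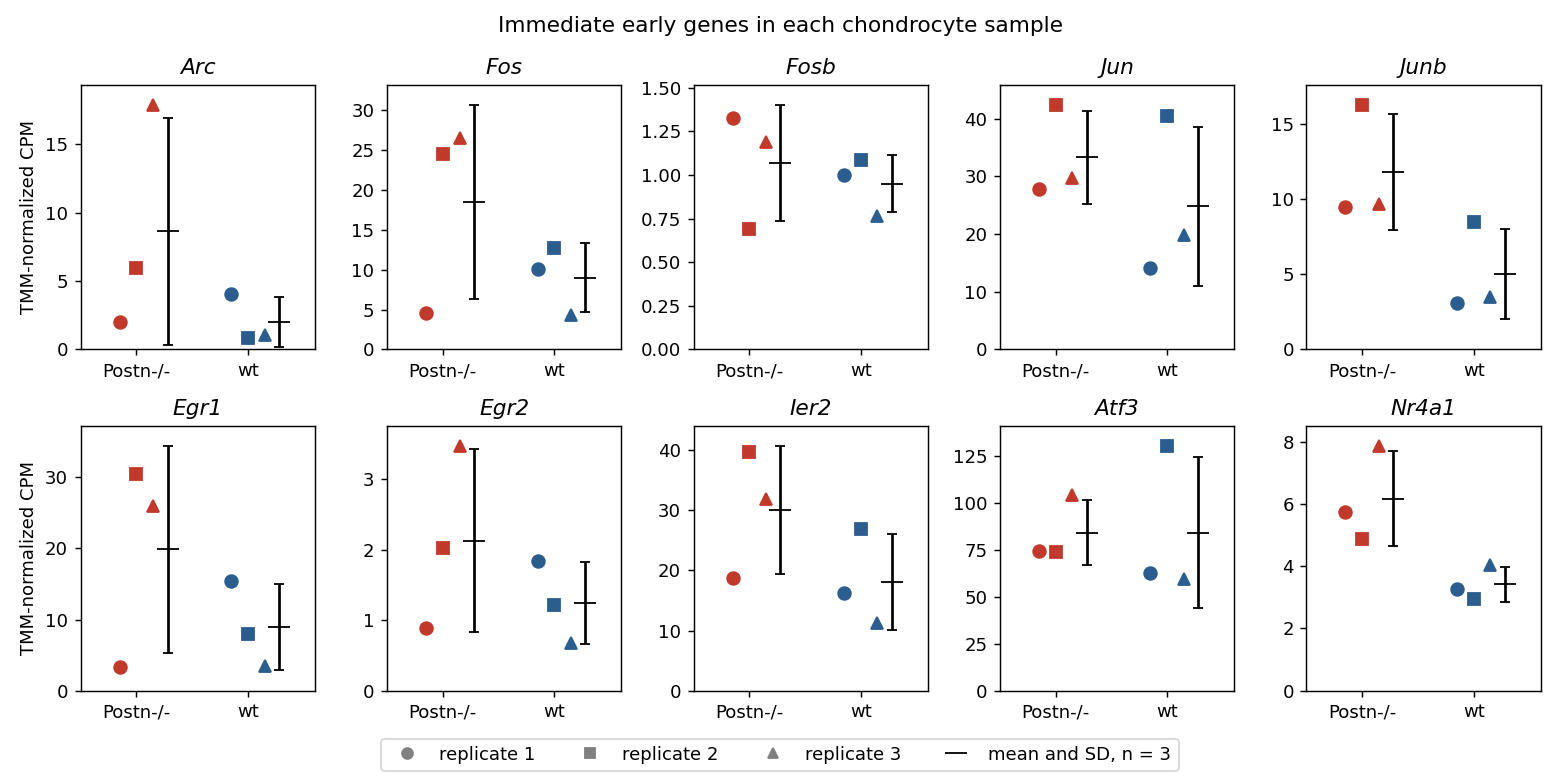
TMM-normalized CPM (vertical axis, starting at or just below 0) of Arc and the 9 other immediate early genes in each sample, with Postn-/- samples in red and wt samples in blue. Symbols mark the replicate, and bars the mean and SD (n = 3). The genotypes are apart in Junb and Nr4a1 and overlap in the other 8 genes.

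Of the 4 AP-1 genes, Fos and Junb were on average higher in Postn-/-, Jun was somewhat higher and Fosb was about level, and none of the differences passed the test. A gene was called at an adjusted p of 0.05 or less, from the quasi-likelihood test of edgeR adjusted over all tested genes (Benjamini-Hochberg), and the unadjusted p is the value before that. Of the 9 genes other than Arc, 0 were called, where 0.0138% of all tested genes (2 of 14533) were, and 2 had an unadjusted p under 0.05, where 6.3% of all tested genes did. Junb and Nr4a1 were those 2, and they were also the 2 whose genotypes did not overlap, both higher in Postn-/-. Of all tested genes, 7.03% were apart and higher in Postn-/-. The count under 0.05 rested on single libraries: it was 6 of 9 without Postn-/- 1 (Fos, Junb, Egr1, Egr2, Ier2 and Nr4a1, with 5.99% of all tested genes), 5 without wt 2 (8.66%), and 1, Nr4a1, without Postn-/- 2 (7.67%) or without wt 3 (6.06%). No adjusted p of these 9 genes was 0.05 or less in those fits. The log2 fold change was above 0 in 8 of the 9 genes against 50.8% of all tested genes, and its median was 0.75 against 0.0042 for all tested genes. Since the 10 genes were chosen with results of these data known, these counts are a description.

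Fos, the founding AP-1 gene (chromosome 12, 85473890 to 85477273, plus strand), reached 4.50, 24.5 and 26.5 CPM in Postn-/- 1, 2 and 3 and 10.03, 12.7 and 4.31 CPM in wt 1, 2 and 3. Postn-/- 2 and 3 lay above all wt samples, while Postn-/- 1 lay beside the lowest wt sample, so the genotypes overlapped. Its fold change in log2 was 1.03 (SE 0.62, adjusted p = 0.723, edgeR), and 0.68 without Postn-/- 3. Fosb, a close relative of Fos (chromosome 7, 19302721 to 19310045, minus strand), had 1.33, 0.691 and 1.19 CPM in the knockout samples, against 1.00, 1.09 and 0.767 CPM in wt, from 16 to 33 reads a sample. The lowest and the highest of the 6 values of Fosb were both in Postn-/- samples. This gave a log2 fold change of 0.16 (SE 0.33, adjusted p = 0.908, edgeR), which turned to -0.028 without Postn-/- 1 and came to 0.40 without Postn-/- 2.

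Jun, the main partner of Fos proteins in AP-1 (chromosome 4, 95049034 to 95052222, minus strand), measured 27.7, 42.4 and 29.6 CPM across Postn-/- 1 to 3 and 14.1, 40.4 and 19.7 CPM across wt 1 to 3. Replicate 2 was the highest sample in both genotypes, and wt 2 lay above Postn-/- 1 and 3. Fitted over all samples, log2 fold change was 0.43 (SE 0.37, adjusted p = 0.777, edgeR). It came to 0.145 without wt 1 and 0.21 without Postn-/- 2, and to 0.98 without wt 2 (unadjusted p = 0.00463 and adjusted p = 0.570, edgeR). The antisense gene Junos overlaps 232 exon bases of Jun and was counted with 11 to 22 reads. Whether counting used strand is not given in the sources used here, so it is not known whether reads over those bases were counted for Jun, for Junos or for neither.

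Junb, an AP-1 subunit that can restrain Jun (chromosome 8, 84976909 to 84978748, minus strand), reached 9.48, 16.3 and 9.67 CPM in Postn-/- 1, 2 and 3 and 3.11, 8.46 and 3.50 CPM in wt 1, 2 and 3. Every Postn-/- sample lay above every wt sample, although wt 2 came within about 1 CPM of Postn-/- 1. On the log2 scale the difference came to 1.24 (SE 0.41, unadjusted p = 0.0172 and adjusted p = 0.717, edgeR). Of the 50-base words in Junb transcripts, 5.76% also occur in transcripts of Prdx2. No other gene in the files had exons that overlap those of Junb, and whether reads of these words were left out was not measured.

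Egr1 and Egr2 encode zinc finger transcription factors that are switched on early by growth factors, and in both, as in Arc, Postn-/- 1 was the lowest Postn-/- sample and wt 1 the highest wt sample. Egr1 (chromosome 18, 34859823 to 34864984, plus strand) had 3.30, 30.4 and 26.0 CPM in the knockout samples, against 15.4, 8.01 and 3.50 CPM in wt. The lowest of all 6 values was that of Postn-/- 1, while the other Postn-/- samples were the 2 highest. Its fold change in log2 was 1.14 (SE 0.76, adjusted p = 0.732, edgeR), from 0.69 without Postn-/- 2 to 1.78 without wt 1. Egr2 (chromosome 10, 67535475 to 67542188, plus strand) measured 0.884, 2.03 and 3.48 CPM across Postn-/- 1 to 3 and 1.85, 1.22 and 0.671 CPM across wt 1 to 3. Postn-/- 1 lay below wt 1 and wt 2, so the genotypes overlapped. This gave a log2 fold change of 0.75 (SE 0.53, adjusted p = 0.740, edgeR). It came to 0.21 without Postn-/- 3, the sample with the highest Egr2, to 0.46 without wt 3 and to 1.15 without wt 1.

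Ier2, a small immediate early gene whose product is found in the nucleus (chromosome 8, 84661331 to 84662852, minus strand), reached 18.7, 39.7 and 31.9 CPM in Postn-/- 1, 2 and 3 and 16.2, 26.8 and 11.3 CPM in wt 1, 2 and 3. The genotypes overlapped in wt 2, which lay above Postn-/- 1. Fitted over all samples, log2 fold change was 0.73 (SE 0.36, unadjusted p = 0.0757 and adjusted p = 0.717, edgeR). It came to 0.48 without Postn-/- 2 or without wt 3, and to 1.13 without wt 2 (unadjusted p = 0.0109 and adjusted p = 0.570, edgeR). Nr4a1, an orphan nuclear receptor (chromosome 15, 101266846 to 101274792, plus strand), had 5.75, 4.88 and 7.86 CPM in the knockout samples, against 3.27, 2.94 and 4.03 CPM in wt. Every Postn-/- sample of Nr4a1 lay above every wt sample. On the log2 scale the difference came to 0.85 (SE 0.25, unadjusted p = 0.00898 and adjusted p = 0.717, edgeR).

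Atf3, a stress-induced factor that pairs with Jun proteins (chromosome 1, 191170296 to 191183340, minus strand), measured 74.7, 73.7 and 104 CPM across Postn-/- 1 to 3 and 62.8, 131 and 59.4 CPM across wt 1 to 3. The highest and the lowest sample were both wt. Its fold change in log2 was -0.00073 (SE 0.31, adjusted p = 0.999, edgeR). It became 0.46 without wt 2, the sample with the highest level (unadjusted p = 0.0334 and adjusted p = 0.571, edgeR), while over the other samples left out in turn its lowest value was -0.20.

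**Figure D2:**
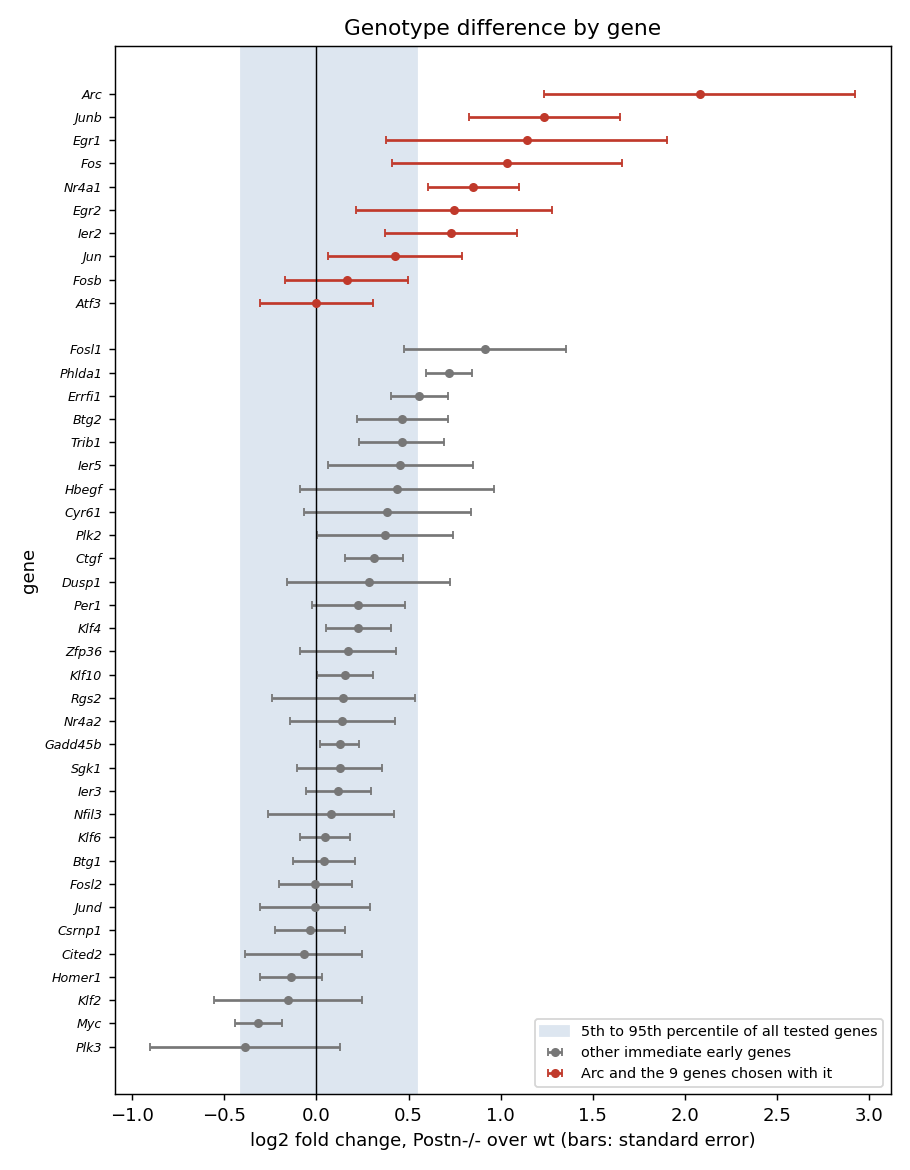
Log2 fold change, Postn-/- over wt (horizontal axis), with standard errors as bars, for Arc and the 9 genes chosen with it (red) and for 31 other immediate early genes (grey). The shaded band runs from -0.41 to 0.54, the 5th and 95th percentiles of all tested genes, and 7 of the red points lie to the right of it.

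Per kilobase of exon (RPKM, here TMM-normalized CPM over the length in the files), the levels of the 10 genes spread widely and Atf3 was the highest. Atf3 was at 42.4 RPKM in Postn-/- and 42.5 in wt on average, followed by Ier2 (19.8 and 11.9), Jun (10.4 and 7.77) and Fos (7.87 and 3.83). Junb was at 6.43 RPKM in Postn-/- and 2.73 in wt, Egr1 at 4.43 and 2.00, Nr4a1 at 2.49 and 1.38, and Arc at 2.82 ± 2.71 and 0.653 ± 0.590. Arc was thus among the lower genes, above Egr2 (0.627 and 0.367 RPKM) and Fosb (0.285 and 0.253 RPKM). The spread between samples of 1 genotype was wide enough that neighbours in this order, such as Fos and Junb in Postn-/-, overlapped.

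These 10 genes varied more between samples of the same genotype than the median gene did. The within-genotype SD of log2 CPM was 1.46 for Egr1, 1.37 for Arc and 1.16 for Fos. An SD as large as that of Egr1 was reached by 0.261% of all tested genes, one as large as that of Arc by 0.372% and one as large as that of Fos by 0.606%. All 10 genes lay above the median SD of all tested genes, which was 0.23, and their own median was 0.61. Nr4a1 had the smallest, at 0.29, a value that 37.1% of all tested genes reached.

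The samples were ordered alike in many of these genes. Postn-/- 3 was among the 2 highest samples for 9 of the 10 genes and Postn-/- 2 for 7, while wt 3 was among the 2 lowest for 9. Postn-/- 1 did not follow the other Postn-/- samples in Arc, Fos, Egr1 and Egr2, where it lay from 0.60 to 1.61 below the gene's mean over 6 samples on the log2 scale, but it was above the mean in Junb and Nr4a1. Summed over the 10 genes, levels were 148, 241 and 258 CPM in Postn-/- and 132, 233 and 108 CPM in wt, so that wt 2 lay above Postn-/- 1.

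**Figure D3:**
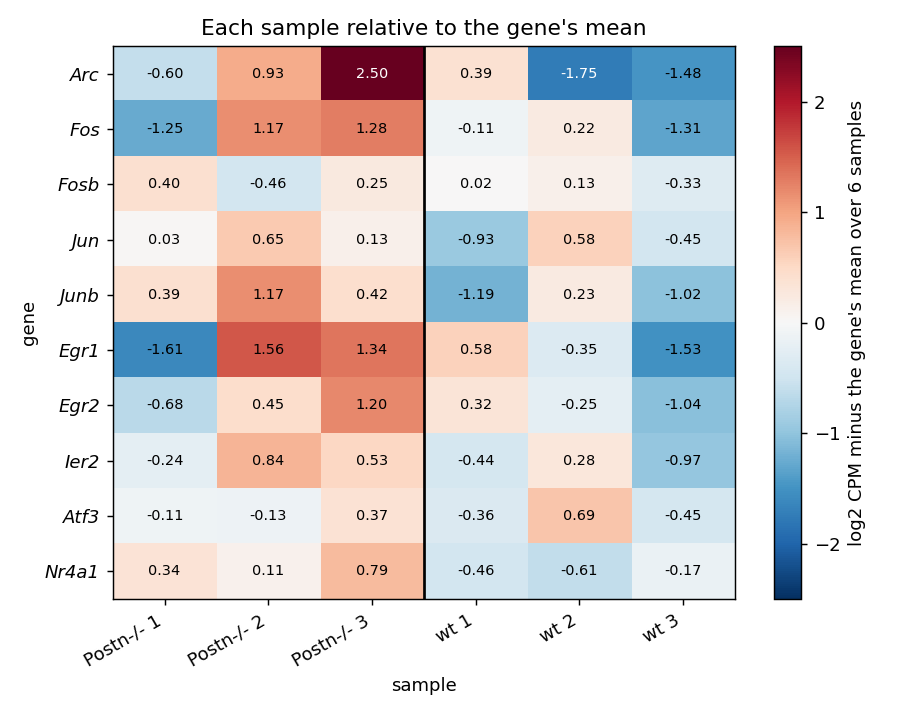
Log2 CPM of each gene (rows) in each sample (columns) minus the gene's mean over the 6 samples, with red above and blue below the mean. Arc is lowest in wt 2, at -1.75, and highest in Postn-/- 3, and Arc, Fos, Egr1 and Egr2 are below their means in Postn-/- 1 and above them in Postn-/- 2 and 3.

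Egr2 was the gene of the 9 whose log2 CPM followed that of Arc most closely over the 6 samples (Pearson r = 0.902, Spearman rho = 0.829). Egr1 (r = 0.797, rho = 0.714), Fos (r = 0.725, rho = 0.657) and Nr4a1 (r = 0.717, rho = 0.714) came next. Without Postn-/- 3 and wt 2, the samples farthest from the median of Arc, r was 0.980 for Egr2, 0.934 for Egr1, 0.922 for Fos and -0.065 for Nr4a1. With the genotype means removed, r was 0.904 for Egr2, 0.803 for Egr1, 0.673 for Fos and 0.414 for Nr4a1. An r with Arc as high as that of Egr2 was found in 0.585% of all tested genes, one as high as that of Egr1 in 2.64% and one as high as that of Fos in 4.83%. The points are the same 6 libraries for every gene, with their depth and handling in common, so the correlations are descriptions.

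Among the genes themselves, 41 of 45 pairs had r above 0 over the 6 samples, with a median of 0.44, and the closest pairs fell into 2 sets. Fos, Egr1 and Egr2 made up one, with r = 0.948 for Fos and Egr1, 0.927 for Egr1 and Egr2 and 0.908 for Fos and Egr2. Jun and Junb made up the other, with r = 0.908. Ier2 was close to both (r = 0.882 with Fos and 0.874 with Junb). Arc had r = 0.043 with Jun, 0.048 with Atf3, 0.086 with Fosb and 0.347 with Junb.

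**Figure D4:**
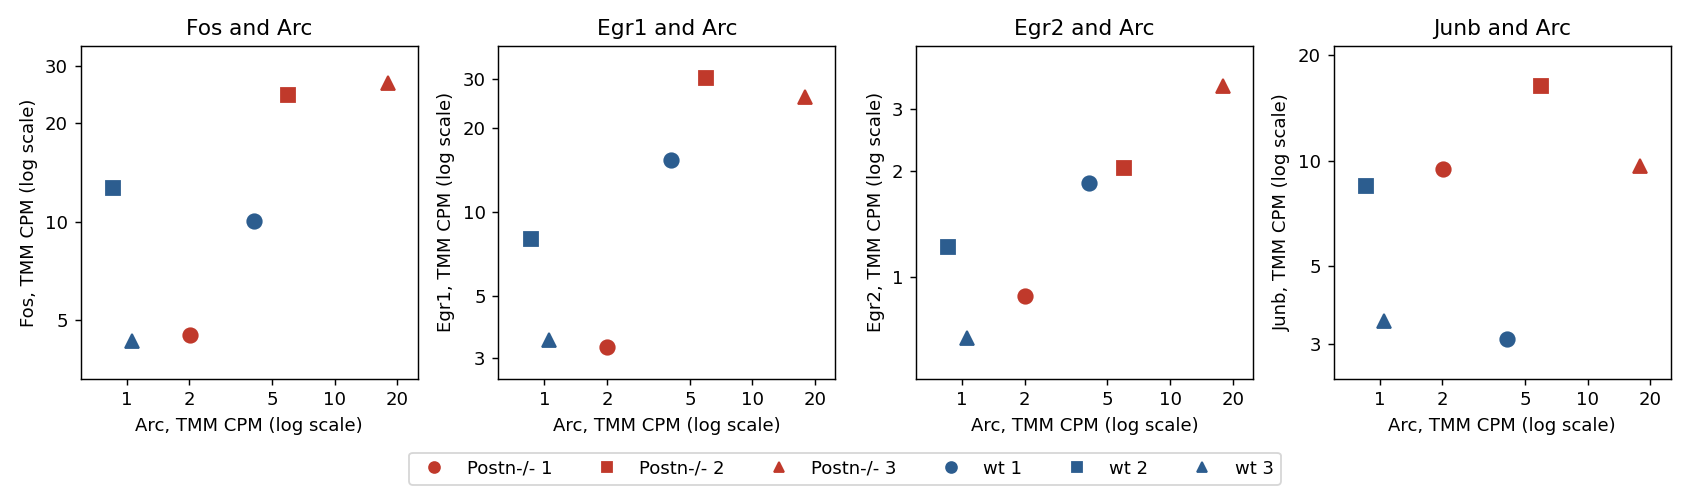
Level of Fos, Egr1, Egr2 and Junb (vertical axes) against that of Arc (horizontal axes) in the 6 samples, as TMM-normalized CPM on log scales, with Postn-/- in red, wt in blue and symbols for the replicate. Egr2 lies highest in the samples with most Arc, of either genotype, and Junb is higher in every Postn-/- sample than in any wt sample.

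By the rule of highest Pearson r over all tested genes, the 5 genes most like Arc were Dcxr (0.994), Sertad1 (0.987), Plek2 (0.985), 5430403G16Rik (0.980) and Hspb1 (0.978). Dcxr, a sugar and carbonyl reductase, reached 34.0, 46.0 and 54.6 CPM in Postn-/- 1, 2 and 3 and 40.1, 29.7 and 30.04 CPM in wt 1, 2 and 3, which is the same order of samples as in Arc over a much narrower range. Hspb1, a small heat shock protein, had 1.69, 2.56 and 3.48 CPM in the knockout samples, against 1.92, 1.45 and 1.53 CPM in wt. These are the highest of 14533 correlations over 6 points.

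Of 40 further immediate early genes, 31 were tested and edgeR called 0, while 2 were higher and 1 was lower at an unadjusted p under 0.05 (3.95% and 2.35% of all tested genes). Their median log2 fold change was 0.15, and 23 of 31 were above 0. Phlda1, a pleckstrin homology protein induced by growth factor signals, measured 17.4, 16.9 and 17.6 CPM across Postn-/- 1 to 3 and 10.6, 10.8 and 10.1 CPM across wt 1 to 3. These values barely varied within a genotype, unlike those of Arc, and the genotypes were apart, with a log2 fold change of 0.72 (SE 0.12, unadjusted p = 0.000435 and adjusted p = 0.717, edgeR). DESeq2's Wald test, which called 0.0857% of the genes it tested, did call Phlda1. Errfi1, a feedback inhibitor of the EGF receptor, reached 17.4, 20.2 and 18.4 CPM in Postn-/- 1, 2 and 3 and 14.3, 13.2 and 10.5 CPM in wt 1, 2 and 3. Its genotypes were also apart, with a log2 fold change of 0.56 (SE 0.16, unadjusted p = 0.00734, edgeR).

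Myc, a growth factor response gene, had 130, 131 and 110 CPM in the knockout samples and 138, 174 and 151 CPM in wt, so that the genotypes were apart, with a log2 fold change of -0.32 (SE 0.13, unadjusted p = 0.0374, edgeR). Fosl1, another Fos relative, had 2.45, 8.91 and 4.96 CPM in the knockout samples, against 3.38, 3.03 and 2.20 CPM in wt, so that Postn-/- 1 lay within the wt range (log2 fold change 0.92, SE 0.44). Btg2, an antiproliferative gene, measured 63.7, 122 and 132 CPM across Postn-/- 1 to 3 and 71.6, 80.3 and 77.9 CPM across wt 1 to 3, with Postn-/- 1 again the lowest (log2 fold change 0.47, SE 0.25). Trib1, a pseudokinase gene, had a log2 fold change of 0.46 (SE 0.23), with wt 2 above Postn-/- 2. Egr4 had no read in any sample, and Egr3, Npas4 and Dusp2 were at or under 0.0958 CPM.

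All 15 listed transcription factors that act on immediate early genes were tested, among them Srf, the Elk factors, Creb1 and Mef2a. None of them was called or had an unadjusted p under 0.05 in edgeR's test, where 6.3% of all tested genes had one. Their median log2 fold change was -0.04. The genotypes were apart in 1 gene that was higher in Postn-/- (Crtc2) and 1 that was lower (Mkl2, log2 fold change -0.19). Of all 14533 tested genes, 1022 were apart and higher and 955 apart and lower. Mef2c had the largest difference, -0.47, and the genotypes overlapped. Ets2 followed at 0.35, Srf at -0.33, Crtc2 at 0.26 and Mkl1 at 0.21.

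Of 14 matrix and inflammatory genes known to respond to AP-1, 11 were tested, 0 were called and 2 had an unadjusted p under 0.05, both higher, where 3.95% of all tested genes were higher. Mmp3, encoding stromelysin, reached 118, 153 and 44.9 CPM in Postn-/- 1, 2 and 3 and 26.4, 31.1 and 57.3 CPM in wt 1, 2 and 3. Postn-/- 3, the sample with the most Arc and Fos, was the lowest Postn-/- sample and lay below wt 3 (log2 fold change 1.46, SE 0.45, unadjusted p = 0.0125, edgeR). The chemokine gene Cxcl1 had 3.46, 13.8 and 2.29 CPM in the knockout samples, against 1.77, 2.99 and 1.82 CPM in wt (log2 fold change 1.58, SE 0.65, unadjusted p = 0.042, edgeR). Most of its difference came from Postn-/- 2, and the genotypes overlapped. The collagenase gene Mmp13 had a log2 fold change of -0.17 (SE 0.85), with replicate 2 the highest sample in both genotypes. Ccl2 had a log2 fold change of 0.89, Spp1 of 0.54 and Hmox1 of 0.45, and the unadjusted p of each was above 0.05.

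The genes around Arc were examined within 1 Mb on chromosome 15, where 11 were tested. None had an unadjusted p under 0.05 or genotypes that were apart, 6 had a log2 fold change above 0, and the median was 0.18. The 3 nearest tested genes above Arc were Jrk (log2 fold change -0.11), Them6 (0.45) and Slurp1 (-0.86), and those below it were Mroh5 (0.54) and Ptp4a3 (0.18). Slurp1, encoding a secreted Ly6-domain protein, measured 22.9, 12.4 and 9.48 CPM across Postn-/- 1 to 3 and 57.3, 6.47 and 17.6 CPM across wt 1 to 3, with wt 1 the highest sample.

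Markers of other cell types were measured for their relation to these levels, and their part in the differences was not tested. The 7 macrophage and leukocyte markers summed to 37.8 to 58.7 CPM in Postn-/- and to 21.8 to 39.0 CPM in wt, and the 5 of them that were tested had log2 fold changes of 0.36 to 0.56, none at an unadjusted p under 0.05. Over the 6 samples r with Arc was 0.842 for Cd68 (log2 fold change 0.56), 0.556 for Cd14 (0.42), 0.504 for Ptprc (0.40), 0.074 for Csf1r (0.36) and -0.458 for Lyz2 (0.55). Cd68 was highest in Postn-/- 3, at 22.9 CPM, and Lyz2 in Postn-/- 1, at 27.5 CPM against 7.86 CPM in Postn-/- 3. No listed macrophage marker was at 0 in any sample, and Tyrobp was between 0.0407 and 0.844 CPM. Fibroblast markers summed to 1150 to 2853 CPM in Postn-/- and to 1416 to 4130 CPM in wt, and endothelial markers to 6.19 to 10.2 and 4.65 to 9.20 CPM. Muscle markers summed to 18.2 to 20.54 CPM in Postn-/- and to 20.57 to 29.5 CPM in wt, so that the sums nearly touched. Of the 4 tested, only Acta1, the skeletal muscle actin, was apart, where 955 of all 14533 tested genes were apart and lower. Acta1 had 2.77, 4.51 and 4.43 CPM in the knockout samples and 4.96, 15.9 and 8.15 CPM in wt. Its log2 fold change was -1.30 (SE 0.42, unadjusted p = 0.0152 and adjusted p = 0.717, edgeR). Des (log2 fold change 0.55), Myh4 (0.00066) and Tnnt3 (-0.17) overlapped. Red cell markers summed to no more than 0.524 CPM in any sample.

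Signs of RNA quality and of heat stress were also set beside the 10 genes. Per the study's methods, only RNA above a high cut-off of the RNA integrity score was sequenced. The share of counts on rRNA genes separated the genotypes, at 0.155%, 0.0963% and 0.156% in Postn-/- and 0.172%, 0.212% and 0.213% in wt. Mitochondrial genes took 0.669%, 0.344% and 0.618% in Postn-/- and 0.578%, 0.701% and 0.823% in wt, so the genotypes overlapped. Postn-/- 2, which had the highest Egr1, Jun, Junb and Ier2, was the lowest sample in both shares. The highest in both was wt 3, among the 2 lowest samples for 9 of the 10 genes. But Postn-/- 3, among the 2 highest samples for 9 of the 10 genes, had the highest rRNA share of the Postn-/- samples. The rRNA share of wt 2, the highest sample in Atf3, was close to that of wt 3. The part of these shares in the differences was not tested. Of 9 heat shock genes, 7 were tested and their median log2 fold change was -0.10. Hspe1, a mitochondrial chaperonin, was the 1 of 7 heat shock genes tested with an unadjusted p under 0.05. Of all tested genes, 6.3% had such a p and 2.35% had it and were lower. Hspe1 was lower in Postn-/-, with the genotypes apart (log2 fold change -0.33, SE 0.12, unadjusted p = 0.0273, edgeR). Dnajb1 was also apart, but higher (log2 fold change 0.11, SE 0.094). Of all 14533 tested genes, 1022 were apart and higher in Postn-/- and 955 apart and lower. The other heat shock genes with the widest differences were Hspb1 (log2 fold change 0.65), Hspa8 (-0.33), Hsph1 (0.29) and Hsp90aa1 (-0.15). The inducible Hspa1a was between 0.335 and 1.02 CPM.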

How the data were processed

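RNA-seq of 3 Postn-/- and 3 wt chondrocyte samples was analysed. Per the study's methods, single-end reads of 50 bases went through STAR 2.0.4b against Ensembl release 76 (GRCm38), and featureCounts 1.4.5 gave the number of unique, unambiguous reads on each gene. The deposited count is the raw count per gene, the deposited CPM is that count scaled to the summed counts, and the deposited RPKM is the CPM per kilobase of exon. The deposited CPM and RPKM were checked against the counts, and levels per length were recomputed from TMM-normalized CPM. Libraries were prepared from amplified full-length cDNA, which can add spread to low genes.

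Symbols came from GENCODE M21 (40340 of 41388 identifiers, 97.5%), and coordinates from the files. The filter asked for more than 1 CPM in 2 or more samples, and with 355 rRNA genes removed 14533 genes were tested. The genotypes were compared by the quasi-likelihood test of edgeR 4.0.16 (R 4.3.3) after TMM normalization, and p-values were adjusted by Benjamini-Hochberg. The common biological coefficient of variation was 0.208. Levels printed as CPM are TMM-normalized, and log2 CPM used a prior count of 2. No pair of libraries agreed within sampling noise (chi-square per degree of freedom 26.5 to 81.3).

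The genes and lists were chosen with earlier results of these data known. Named genes were the 10 chosen ones, in each other list the 5 tested genes with the largest absolute log2 fold change and any called (the other marker lists are given mostly as sums), the 5 genes most like Arc, its nearest tested neighbours (3 above and the 2 below) and Postn. Genes such as Phlda1, Errfi1 and Myc were named for their unadjusted p, and Mkl2 and Dnajb1 because their genotypes were apart, after their values were seen. Egr3, Egr4, Npas4, Dusp2, Mmp13, Tyrobp, Stmn2 and Hspa1a were named for their role, also after their values were seen.

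Alternatives were the Wald test of DESeq2 1.42.0, voomWithQualityWeights in limma 3.58.1 without and with 2 surrogate variables (sva 3.50.0), DESeq2's size factors, upper quartile normalization, other filters, a block for the replicate number, and fits that each left out 1 sample. The study's other experiments were not analysed here.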

Additional observations from a re-analysis of the deposited data

How the results depend on the processing

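The edgeR quasi-likelihood test called 2 of all tested genes at an adjusted p of at most 0.05, against 11 with DESeq2, 1 with voomWithQualityWeights and 3 with it and surrogate variables, 2 with DESeq2's size factors, 1 with upper quartile normalization, 9 without a filter and 0 with more than 1 CPM asked in all 6 samples, and 1 to 2 when a sample was left out. DESeq2 called 1 of the other immediate early genes (Phlda1) where edgeR called 0. Of 124 alternative fits of the 9 genes beside Arc, 123 gave an adjusted p (DESeq2 gave none for Fosb), and none of these was at most 0.05. The count of the 9 with an unadjusted p under 0.05 was 2 in edgeR (6.3% of all tested genes) and 3 with DESeq2 (6.01%). It was 3 with voomWithQualityWeights (9.2%) and 4 with surrogate variables added (12.9%). Without a filter it was 5 (5.24%), and with the replicate block 4 (8.17%). When a sample was left out it was 1 to 6 (2.95% to 8.66%). The log2 fold change stayed above 0 in every alternative for Arc (1.95 to 2.45, leaving out samples aside), Fos, Jun, Junb, Egr1, Egr2, Ier2 and Nr4a1. It turned for Fosb, to -0.028 without Postn-/- 1 (range -0.028 to 0.40 when a sample was left out), and for Atf3, which was at 0.27 with voomWithQualityWeights, 0.017 with upper quartile normalization, 0.014 with the filter in all 6 samples and -0.20 to 0.46 when a sample was left out. The cause was not tested. Arc, Fosb and Egr2 could not be fitted with the filter in all 6 samples, which they did not pass. The median of all genes moved by no more than 0.02 under any setting.

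Replicate numbers are shared by the genotypes but mark different mice. Deviations of same-numbered samples correlated at 0.0824, 0.155 and 0.143, other pairs at -0.130 to 0.0143, and all 6 samples correlated best with their own number. The 3 same-numbered values were small but above those of every other pair. Whether the numbers mark a shared batch was not tested, and the main fit did not take them as pairs. With the replicate block, 1 gene was called and the log2 fold change of Atf3 was 0.081. At 3 counts per 0.113 to 0.146 CPM, Arc in wt and Fosb and Egr2 rest on the fewest reads.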

Other observations

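Arc is a domesticated Gag gene, and 14 other Gag-derived genes were listed beside it, of which 9 were tested. None was called in edgeR's test, and Rtl8b was the 1 with an unadjusted p under 0.05, where 6.3% of all tested genes had one. Rtl8b had 9.12, 6.63 and 7.29 CPM in the knockout samples, against 5.498, 4.48 and 4.70 CPM in wt, with the genotypes apart and a log2 fold change of 0.65 (SE 0.20, unadjusted p = 0.0115, edgeR). Sequence that Rtl8b may share with Rtl8a and Rtl8c was not measured, so its value is uncertain. Peg10, an imprinted gene, had a log2 fold change of -0.42 (SE 0.23), and the genotypes overlapped. Rtl5 followed at -0.42, Rtl8a at 0.40 and Zcchc12 at -0.30. Rtl1 had no read in any sample.

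Of 12 genes for known partners of the Arc protein, 11 were tested and 0 were called. Dnm2, encoding dynamin 2 of the endocytic machinery, was the 1 with an unadjusted p under 0.05, against 6.3% of all tested genes. Dnm2 measured 104, 95.9 and 96.8 CPM across Postn-/- 1 to 3 and 77.3, 89.4 and 84.2 CPM across wt 1 to 3 (log2 fold change 0.24, SE 0.10, unadjusted p = 0.0428, adjusted p = 0.717, edgeR). Camk2a, a calcium-dependent kinase, was at 11.8 CPM in wt 1 and between 3.62 and 4.19 CPM in the other 5 samples (log2 fold change -0.73). Wasf1, which takes part in actin assembly, had a log2 fold change of -0.54 (SE 0.23), and Dnm3 of 0.16. The glutamate receptor gene Gria1 was between 0.854 and 1.96 CPM in the 6 samples, with a log2 fold change of -0.20.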
